A study of Mus musculus with 3 samples.

Results

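The 2821 regions described here were peaks of accessible chromatin that were strong 1 week after loss of Taf4 and were found again at 5 weeks. They overlapped no peak called in the library of wild type (WT) islets. By an estimate from the peak values, that library had the lowest depth of the 3, which limits what a missing WT peak means, as set out below. They were chosen by measured values. Each was a peak on chromosomes 1 to 19 of the Taf4 KO 1 week list with a -log10 q of 5 or more, overlapped a Taf4 KO 5 week peak by at least 1 bp and overlapped no WT peak. They made up 12.0% of the 23483 strong peaks of the 1 week list, which held 138129 peaks in all. Presence in the lists and strength at 1 week are therefore properties of the choice and are given below as description.

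The study asked how chromatin in islet cells changes when adult beta cells lose Taf4, which is part of TFIID. In ATAC-seq a transposase cuts and tags DNA wherever chromatin is open, and 1 library was made from dissociated cells of isolated islets for each of WT, Taf4 KO 1 week and Taf4 KO 5 weeks, all of strain C5LBl6 as labelled. According to the study, Taf4 KO animals carried floxed Taf4 alleles and the Ins1::Cre-ER T2 transgene, whose insulin promoter limits Cre to beta cells. Its controls carried the same transgene with Taf4 alleles that were not floxed, and received tamoxifen like the mutants. The genotype label of the WT library says only wild type. Other islet cells do not use the insulin promoter and were not targeted. The labels do not give the number or age of the animals behind a library, and the study states that animals had the same age when injected. With 1 library per group no test between conditions was possible, and each contrast below is a contrast between libraries.

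An ATAC-seq peak far from a gene start commonly marks an enhancer or an insulator, and one over a start marks a promoter. Beta cell enhancers are known to be bound by homeodomain factors such as Pdx1, by Foxa factors and by NeuroD1, whereas most promoters open in any tissue are rich in GC and in motifs of Sp, Ets and Nrf1 factors. TFIID, the complex that Taf4 belongs to, acts at promoters, where it binds near the start and brings in RNA polymerase II. In a bulk library, more open chromatin per cell and more cells of a type cannot be told apart.

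The islet label was looked at through defining genes, which could not decide it. All 26 listed beta cell genes and all 10 matched alpha cell genes had a WT peak within 10 kb of a start. So did all 14 progenitor and disallowed genes and all 14 matched TFIID genes. On a list of genes foreign to islet cells, 10 of the 15 matched genes had one. A WT peak near a start therefore does not tell islets from another tissue.

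The sequences of 5 of these regions are shown to make plain what kinds of DNA they held: the second strongest of all, the strongest one made of a simple repeat, the strongest one at a promoter and the strongest pair near genes of a list of neuronal adhesion genes. Each is the central 300 bases of the peak, plus strand, mm9. Capitals mark matches on either strand to the FOX motif TGTTTAC, the homeodomain motif TAATTA, the GATA motif AGATAA, the E-box CAGATG, the SP motif GGGCGG or the CTCF motif.
chr11:108873032-108873331, intergenic, nearest to Axin2: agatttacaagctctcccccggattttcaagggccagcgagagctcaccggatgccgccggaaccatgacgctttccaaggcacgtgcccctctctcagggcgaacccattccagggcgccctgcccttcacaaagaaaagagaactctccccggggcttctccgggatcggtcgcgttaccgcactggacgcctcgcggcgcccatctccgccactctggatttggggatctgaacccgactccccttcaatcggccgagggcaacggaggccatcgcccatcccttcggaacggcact
chr17:13498842-13499141, intergenic, nearest to Gm9880: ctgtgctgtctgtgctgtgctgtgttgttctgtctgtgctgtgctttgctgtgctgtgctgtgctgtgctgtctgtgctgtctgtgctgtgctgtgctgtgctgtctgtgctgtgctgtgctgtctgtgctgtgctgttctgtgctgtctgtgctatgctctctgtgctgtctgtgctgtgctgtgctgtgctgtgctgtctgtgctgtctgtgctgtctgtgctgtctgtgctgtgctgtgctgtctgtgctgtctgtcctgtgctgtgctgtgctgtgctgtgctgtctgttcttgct
chr7:91827817-91828116, at the promoter of Zfand6: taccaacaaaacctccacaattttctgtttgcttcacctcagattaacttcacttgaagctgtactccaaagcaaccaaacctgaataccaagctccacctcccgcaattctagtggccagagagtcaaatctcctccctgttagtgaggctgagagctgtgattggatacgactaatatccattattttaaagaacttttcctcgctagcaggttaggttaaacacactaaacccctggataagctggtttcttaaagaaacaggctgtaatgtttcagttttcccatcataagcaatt
chr6:45038397-45038696, in an intron of Cntnap2: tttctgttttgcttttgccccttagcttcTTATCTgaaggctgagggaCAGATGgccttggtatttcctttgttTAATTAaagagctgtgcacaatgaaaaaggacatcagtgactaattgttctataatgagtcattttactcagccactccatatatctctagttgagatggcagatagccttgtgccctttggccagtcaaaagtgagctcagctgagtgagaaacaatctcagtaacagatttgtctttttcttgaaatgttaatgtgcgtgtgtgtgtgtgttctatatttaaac
chr5:48853521-48853820, in an intron of Kcnip4: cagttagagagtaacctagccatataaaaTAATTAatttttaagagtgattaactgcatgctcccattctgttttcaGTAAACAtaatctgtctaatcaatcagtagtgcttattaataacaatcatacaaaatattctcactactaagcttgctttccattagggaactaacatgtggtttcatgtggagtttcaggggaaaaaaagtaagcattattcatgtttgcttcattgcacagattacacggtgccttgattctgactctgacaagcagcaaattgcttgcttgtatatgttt

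The Kcnip4 intron sequence held a homeodomain and a FOX match. The Cntnap2 sequence held a match each to the GATA, E-box and homeodomain motifs. No match was present in the other 3. The chr17 sequence was an array of a short word, ctgtg, and its variants, and 63.0% of its 31-base words also occurred elsewhere in the genome. The chr11 sequence, with a GC content of 63.0%, reads as a piece of the large ribosomal RNA gene. None of its 31-base words occurred elsewhere on the chromosomes searched, and the ribosomal DNA repeats were not among the sequences searched, so reads from the repeats and reads from this place cannot be told apart.

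The strongest region lay in an intron of Cdk8, which encodes the kinase of the Mediator complex. It had a -log10 q of 78.2 and a fold over local background of 11.49 at 1 week, and 86.8 and 8.88 at 5 weeks. WT had 3 peaks within 20 kb, all to its left, with a -log10 q of 1.75, 7.74 and 1.53 in order of distance. The nearest ended 5985 bp away. Of these, the one with 7.74 was also present at 1 week (2.62) and at 5 weeks (8.18), and the nearest at 5 weeks (4.45). The one with 1.53 was in neither Taf4 KO list. A further neighbour, at chr5:147058912-147059170, was in both Taf4 KO lists (3.32 at 1 week, 18.9 at 5 weeks) and not in WT.

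The second, at chr11:108872878-108873485, lay 88687 bp downstream of the start of Axin2, a negative regulator of Wnt signalling. Its -log10 q was 65.2 at 1 week and 97.1 at 5 weeks, the highest of all 2821 regions at that time. No other peak of any list was called within 20 kb of it, and the nearest WT peak was 45703 bp away. These 2 regions stood apart from the rest: the third, the repeat array at chr17:13498776-13499208, had 33.0 at 1 week and 39.7 at 5 weeks.

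The next 7 by strength at 1 week had a -log10 q between 23.8 and 31.5. They included introns of Mbd5, which encodes a methyl-CpG-binding domain protein (31.5 at 1 week, 23.1 at 5 weeks), of Kctd16, an auxiliary subunit of GABA-B receptors (26.3 and 35.0), and of Lphn3, an adhesion receptor also called latrophilin 3 (25.4 and 22.3). A region 164825 bp upstream of Gdi2, which encodes an inhibitor of Rab GTPase cycling, had 25.1 and 21.9. Of its 31-base words 28.1% occurred elsewhere. A region 11199 bp upstream of Hic2, a transcriptional repressor gene, had 24.4 and 27.0 and lay only 1158 bp from a WT peak. All of the 10 strongest at 1 week had a -log10 q of at least 21.9 at 5 weeks.

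Among the rest, the strongest at 5 weeks was in an intron of Prkd1, which encodes protein kinase D1, at chr12:51635009-51635459. It had 22.0 at 1 week and 38.7 at 5 weeks, and its fold went from 6.12 to 7.06. A region 5020 bp upstream of Npr1, the receptor gene of atrial natriuretic peptide, had 11.3 and 30.0, and one 97383 bp upstream of Sphkap had 15.4 and 29.2. A region at chr1:79451070-79451498, 14619 bp upstream of Scg2, which encodes the granule protein secretogranin II, had 13.8 and 25.3, and its nearest WT peak was 3720 bp away. The last of these, at chr2:181652055-181652554, had 16.1 and 24.1.

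Most of the regions were far weaker than these. The -log10 q at 1 week had a median of 6.50, with quartiles of 5.60 and 8.14, and 345 regions (12.2%) reached 10 and 20 reached 20. The fold over local background ranged from 2.17 to 11.5 with a median of 3.47. The 20316 strong 1 week peaks found in all 3 lists had a median -log10 q of 8.59 and a median fold of 3.84. The share of 1 week peaks that were in both Taf4 KO lists and not in WT depended on strength. It was 30.5% (42114 peaks) over the whole 1 week list, 16.1% at a -log10 q of 5 to 10, 4.59% at 10 to 20 and 1.99% at 20 or more, where 20 of 1007 peaks remained.

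At 5 weeks the overlapping peak had a -log10 q of 1.14 to 97.1, with a median of 6.43 and quartiles of 4.25 and 9.40. It reached 5 in 1842 regions, or 65.3% (Wilson 95% interval 63.5 to 67.0, counting error only), where 27.8% of the whole 5 week list reached it. Among the strong peaks of all 3 lists the share was 95.9%. By every measure the value was higher at 5 weeks in the minority of the regions. The -log10 q was higher at 5 weeks in 42.4% of them (84.1% of the peaks in all 3 lists), and the fold in 17.3% (48.9%). The pileup over the list's background floor, explained next, was higher at 5 weeks in 17.6%, with a median ratio of 0.804 against 1.07 for the peaks in all 3 lists. Because the regions had to pass a strength limit at 1 week and not at 5 weeks, lower values at 5 weeks are in part fixed by the choice. Across the 2821 regions, which share their libraries, Spearman's rho between the times was 0.388 for the -log10 q and 0.447 for the fold.

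**Figure D1:**
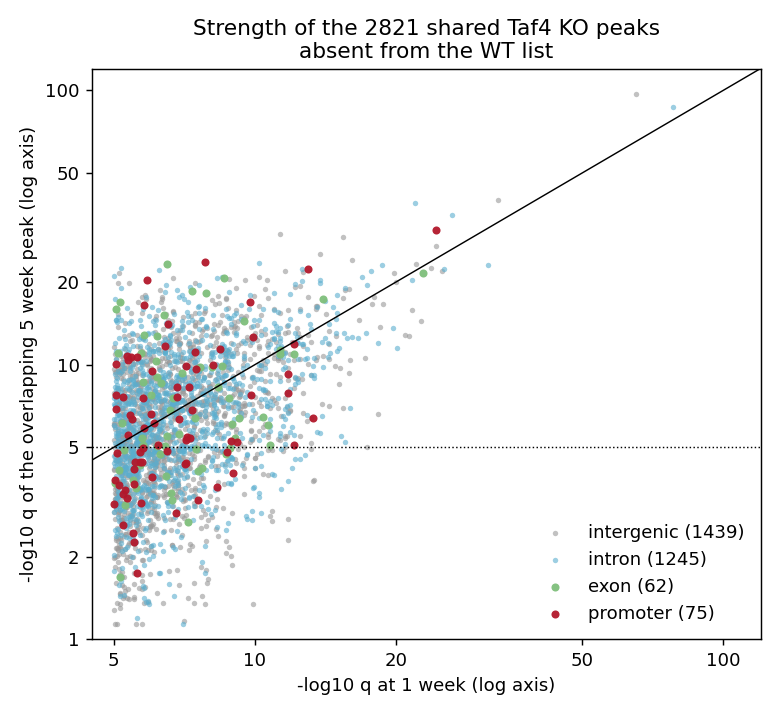
Each point is 1 of the 2821 regions, with its -log10 q at 1 week on the x axis and that of its overlapping 5 week peak on the y axis, both logarithmic, coloured by place. The solid line marks equal values and the dotted line a value of 5 at 5 weeks. Most points lie between 5 and 10 at 1 week, 65.3% lie above the dotted line, and the regions in the Cdk8 intron and near Axin2 stand apart at the top right.

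The same interval was usually called at both times. The median length was 412 bp at 1 week and 420 bp at 5 weeks, and the 5 week peak covered 74.1% or more of the 1 week peak in all but the lowest quartile. In 719 regions (25.5%) the 1 week peak lay wholly inside the 5 week peak. Only 6 regions were covered by more than 1 peak at 5 weeks. The peaks found in all 3 lists were longer, with a median of 677 bp at 1 week and 855 bp at 5 weeks.

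The lists differed in depth as estimated here, and this touches every region described. The estimate assumes that reads were extended equally in all libraries. From the fold and the p of each peak the local background can be solved in reads, and each list had a floor of lowest backgrounds, at 3.66 reads in WT, 6.45 at 1 week and 9.38 at 5 weeks, which is 1.77 and 2.57 times WT. At the WT floor a pileup of 10.2 reads, 2.78 times the floor, would have reached the lowest p of the WT list. The regions had a median pileup of 4.37 times the floor at 1 week and 3.62 times at 5 weeks. After scaling to the WT floor all 2821 kept a p beyond the lowest WT p at 1 week, which the choice by 1 week strength fixed, since it also held for all 20316 strong peaks in all 3 lists. Over the whole 1 week list the share was 43.2%, from which nothing is read here. Where the overlapping 5 week peak had to pass as well, which the choice did not fix, 2268 regions remained. A median region scaled from 1 week corresponded to 16.0 WT reads with a counting error of 4.0 reads (Poisson SD), and 2614 regions (92.7%) exceeded the 10.2 reads by more than 1 such SD and 526 (18.6%) by more than 2. The count beyond 1 SD from 1 week was largely fixed by the choice by 1 week strength. From 5 weeks the median was 13.2 reads, and the counts were 1182 (41.9%) and 249 (8.83%). Of the peaks in all 3 lists, 96.8% exceeded it by more than 1 SD and 44.3% by more than 2 from 1 week. For regions within 2 SDs of the limit, a missing WT peak cannot be told apart from the counting error of the WT library. The pileups are averages over a peak, and signal below the WT calling limit was not analysed here.

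Distance to WT peaks ranged from 4 bp to 1543018 bp, with a median of 16643 bp and quartiles of 4700 and 51795 bp. It was 1000 bp or less in 90 regions (3.19%), 10000 bp or less in 1064 (37.7%) and 100000 bp or less in 2443 (86.6%). The 299 strong peaks of the 1 week list alone lay farther out, with a median of 32279 bp, and the median over every 1 week peak without a WT peak was 75536 bp. In 53 regions the overlapping 5 week peak itself touched a WT peak, so that the 5 week peak joined the region to a WT site.

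**Figure D2:**
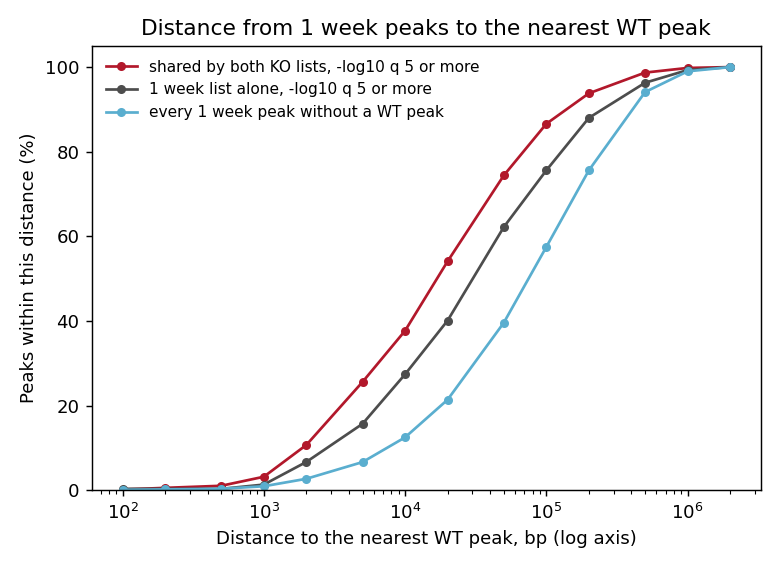
Cumulative share of 1 week peaks (y axis, percent) that lie within a given distance of the nearest WT peak (x axis, bp, logarithmic), for the 2821 shared regions, the 299 strong peaks of the 1 week list alone and every 1 week peak without a WT peak. The shared regions lie closest, with 37.7% within 10000 bp against 27.4% and 12.5%.

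The closest was at chr13:69542053-69543452, 129964 bp downstream of the start of Papd7, which lay 4 bp from a WT peak and had a -log10 q of 5.38 at 1 week and 19.8 at 5 weeks. Next came chr3:100233630-100233939, 59462 bp downstream of the start of Fam46c, at 5 bp from a WT peak and chr10:31264552-31264774, in an intron of Rnf217, at 11 bp. At these places the choice rests on where the caller drew an edge. The 2 farthest, at 1543018 and 1353005 bp, were both in a cluster of olfactory receptor genes of chromosome 2, which are silent in most tissues. Of these, chr2:88233778-88234142 near Olfr1178 had a -log10 q of 5.80 at 1 week and 4.90 at 5 weeks, and chr2:87996624-87997015 near Olfr1167 had 5.24 and 1.41. The third, chr12:23094338-23094936, was 1253793 bp away, had a GC content of 73.0% and had 6.28 and 6.85.

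The limit of 5 cut through a dense part of the list. The weakest at 1 week, at chr7:79555723-79556520, had 5.00 at 1 week and 6.12 at 5 weeks. The next 2, in an intron of Fndc3b and 102219 bp upstream of Sstr4, had 5.01 at 1 week and 2.03 and 4.14 at 5 weeks. The 3 peaks left out by the narrowest margin, upstream of Hmcn1 and in introns of Nek10 and Fap, also rounded to 5.00 and had 5.51, 7.92 and 3.13 at 5 weeks. The start nearest to the last was that of Gcg, the glucagon gene of alpha cells, 18910 bp away.

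The regions lay away from promoters. A promoter was taken as 1000 bp upstream to 100 bp downstream of a protein-coding start, and 75 regions (2.66%, interval 2.13 to 3.32) overlapped one, against 33.3% of the strong peaks in all 3 lists and 8.56% of the whole 1 week list. Outside promoters, 1245 regions (44.1%) were in introns, 62 (2.20%) in exons and 1439 (51.0%) between genes. The midpoint was a median of 58752 bp from the nearest protein-coding start, and 54.7% of regions were more than 50 kb from one, compared with 13710 bp and 27.7% for the peaks in all 3 lists. The 299 strong peaks of the 1 week list alone (78250 bp, 59.2%) and the whole 1 week list (83157 bp, 59.8%) lay farther out than the regions.

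**Figure D3:**
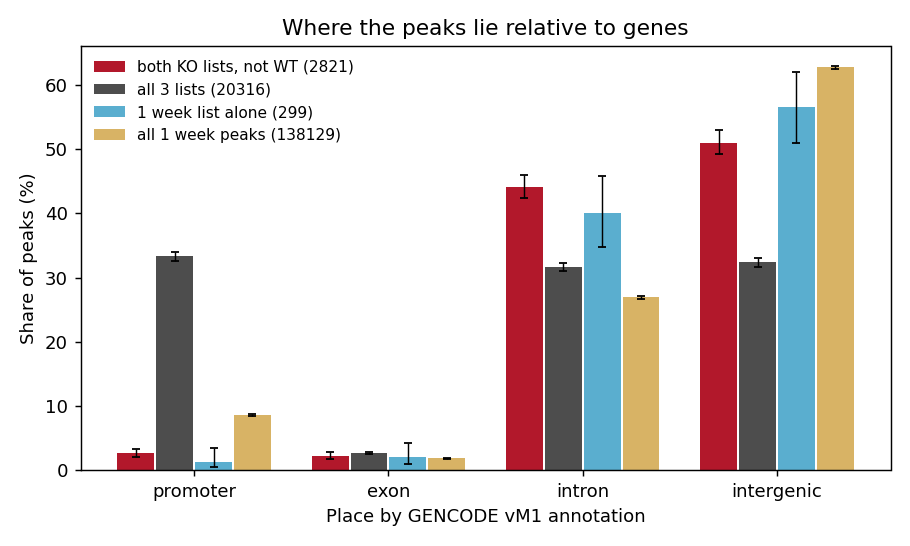
Share of peaks (y axis, percent) in promoters, exons, introns and between genes for the 2821 shared regions, the strong peaks in all 3 lists, the strong peaks of the 1 week list alone and all 1 week peaks, with Wilson 95% intervals. Promoters hold 2.66% of the shared regions and 33.3% of the strong peaks in all 3 lists.

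The strongest of the 75 promoter regions was that of Zfand6, which encodes a zinc finger protein, at chr7:91827783-91828151. It was centred 106 bp upstream of the start and had a -log10 q of 24.4 at 1 week and 31.1 at 5 weeks, and its nearest WT peak was 9762 bp away. The other 9 of the 10 strongest had 9.77 to 13.3 at 1 week and 5.11 to 22.3 at 5 weeks. The promoter regions of Zmat4, another zinc finger gene (13.0 and 22.3), of Rims2, an active zone protein of vesicle release (9.94 and 12.6), and of Tmem63a, an ion channel gene (9.77 and 16.9), had the higher -log10 q at 5 weeks. Those of Cd47, the cell surface signal that restrains phagocytes (13.3 and 6.41), of C4bp, a complement inhibitor (12.1 and 5.11), and of Olig1, a bHLH factor of oligodendrocytes (11.8 and 7.86), had the lower one. At Cd47 the peak only reached the window's edge, with its midpoint 1112 bp upstream of the start. The promoter region of H2-Q6, a class I histocompatibility gene with close paralogs, lay 228 bp from a WT peak, and 64.1% of its 31-base words occurred elsewhere. Only uniquely aligned reads were kept, so reads that matched a copy equally well were left out there. The remaining ones were Mcart1 (12.1 and 11.9) and Cntnap5b, a contactin-associated protein gene (9.80 and 7.74).

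The regions were poorer in GC than the peaks in all 3 lists. The median GC content of the central 300 bases was 44.7%, against 52.0%, and 1.91% of the windows reached 60% against 27.9%. Outside promoters the medians were 44.3% for 2746 regions and 48.3% for 13556 peaks in all 3 lists. The surrounding 1 Mb was also poorer in GC, with medians of 40.9% and 43.5%. Low GC was shared with other 1 week peaks. Promoters included, the strong peaks of the 1 week list alone had medians of 44.0% in the window and 39.3% in the surrounding 1 Mb, and the whole 1 week list had 46.3% and 40.2%.

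Read the other way, the share of strong peaks that were in both Taf4 KO lists and missing from the WT list varied with place and composition. It was 1.10% of 6840 strong peaks at promoters, 10.1% of 612 in exons, 15.9% of 7825 in introns and 17.5% of 8206 between genes. Outside promoters it fell from 33.3% (31.7 to 34.9) in the quintile of peaks with the lowest GC around them to 4.75% (4.07 to 5.52) in the quintile with the highest, with 21.5%, 13.0% and 9.98% between. Whether the libraries differed in GC bias was not tested.

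**Figure D4:**
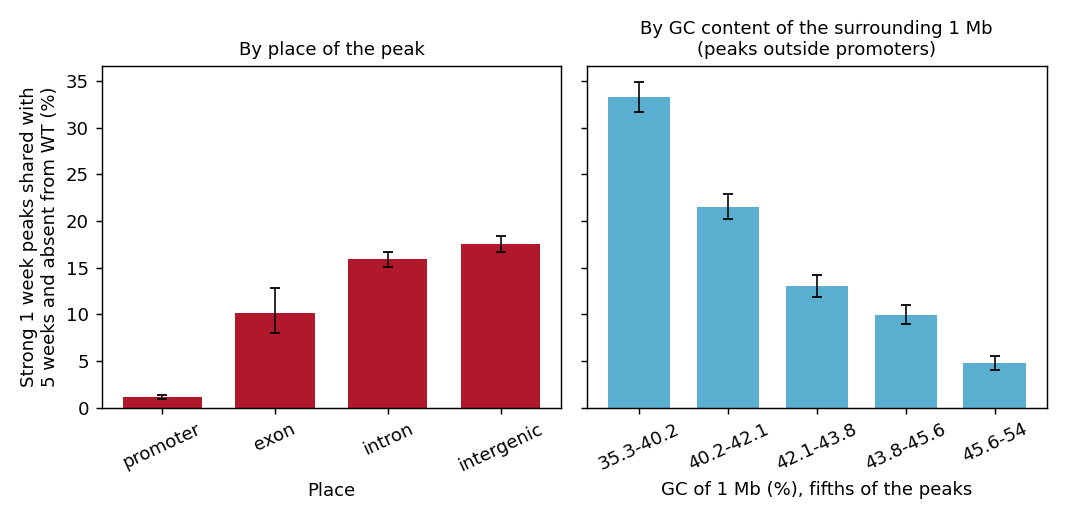
Percent of strong 1 week peaks that were shared with 5 weeks and absent from the WT list (y axis), by place on the left and, outside promoters, by quintile of the GC content of the surrounding 1 Mb on the right (x axis, percent), with Wilson 95% intervals. The share is lowest at promoters (1.10%) and falls from 33.3% to 4.75% from low to high GC.

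The regions were spread over all 19 autosomes, from 35 on chromosome 19 to 242 on chromosome 3, or 0.571 to 1.52 per Mb. They made up 6.73% of the strong peaks of chromosome 19, 6.89% on chromosome 11 and 7.68% on chromosome 7, and 15.4% on chromosome 3. No region lay within 1000 bp of another, the median gap between neighbours was 424292 bp, and 1442 bins of 1 Mb held at least 1, of which 707 held exactly 1. The densest bin, 15 to 16 Mb of chromosome 5, around Cacna2d1, a calcium channel subunit gene, and Hgf, the hepatocyte growth factor gene, held 11 of 26 strong peaks, but in 6 of them at least 50% of the window's 31-base words occurred elsewhere. The bin from 60 to 61 Mb of chromosome 3, around Mbnl1, a splicing factor gene, and P2ry1, an ATP and ADP receptor gene, held 10 of 18 strong peaks and none with repeated words. A bin of chromosome 2 near Meis2, a homeobox gene, one of chromosome 1 near Ogfrl1 and one of chromosome 17 near Efna5 held 8 each. Over all 2821 regions, 52 (1.84%) were repeated to that degree, compared with 0.935% of the peaks in all 3 lists and 5.02% of the strong peaks of the 1 week list alone, and 86.0% had no repeated word.

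Around Taf4 itself (Taf4a in the annotation) regions were sparse, as they were over the genome, with a median gap of 424292 bp between neighbours. The nearest region was in an intron of Cdh4, a cadherin gene, 336376 bp from the median Taf4a start, with a -log10 q of 6.45 at 1 week and 8.39 at 5 weeks. It was the only one among 19 strong peaks within 1 Mb, where 12.0% of all strong peaks of the 1 week list were regions.

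By nearest protein-coding start the regions fell to 1933 genes, of which 1392 had 1 region, 340 had 2 and 38 had 5 or more. Ptprd, which encodes a receptor tyrosine phosphatase of synapses, was nearest to 10 regions, of which 8 were in introns. They were among 28 strong and 205 1 week peaks nearest to this gene, and their median -log10 q was 7.24 at 1 week and 5.28 at 5 weeks. Ctnnd2, the gene of delta-catenin, was nearest to 8 of 16 strong peaks, with medians of 5.97 and 6.16.

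Genes nearest to 7 regions included Prkd1, Lsamp, Kcnip4, Igfbp7, Efna5 and Fat3. Of these named, Prkd1 and Lsamp had the strongest single regions. At Prkd1 the 7 regions were among 16 strong peaks and spanned 496 kb, with a highest -log10 q of 38.7 at 5 weeks. For Lsamp, a neuronal cell adhesion gene, they were 7 of 12 strong peaks with medians of 6.40 and 3.31.

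Gene lists, compiled with earlier results of these data known, were counted by members with a region within 50 kb of a start. Of all 21275 protein-coding genes 1792 (8.42%) had one. Of 26 beta cell identity and function genes 1 did (3.85%): Ero1lb, which encodes an oxidase of the endoplasmic reticulum that helps proinsulin fold, had a region in its own intron with a -log10 q of 6.19 at 1 week and 5.60 at 5 weeks, 2704 bp from a WT peak. None was near the 10 matched alpha cell genes, although a peak near Gcg missed the limit of 5 narrowly as given above, nor near the 14 TFIID subunit genes, the 14 progenitor and disallowed genes or the 17 matched acinar and duct cell genes.

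Markers of other cell types had a region at 1 of 10 delta, PP and epsilon cell genes, 1 of 13 endothelial genes (7.69%), 1 of 12 stellate and fibroblast genes (8.33%) and 1 of 18 immune genes (5.56%), near the 8.42% of all genes. The single one near a delta, PP and epsilon cell gene was 30992 bp from the start of Cckbr, a gastrin and cholecystokinin receptor gene (8.07 at 1 week, 7.85 at 5 weeks). The single endothelial one, in an exon of Nrgn, was 13662 bp from a start of Esam, an endothelial adhesion gene (6.68 and 7.57). The stellate and fibroblast list had 1, in an intron of the collagen gene Col3a1, 2705 bp from its start and 42605 bp from a WT peak (5.68 and 5.61). The immune list had 1 of 18 genes, Cd14, a receptor of bacterial lipopolysaccharide on macrophages, at 26991 bp (6.35 and 8.43). Whether the share of these cell types differed between the libraries was not tested.

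Stress and factor lists had 1 to 3 genes each, to be read beside the 8.42% of all protein-coding genes with a region within 50 kb. Of 22 inflammation and acute stress genes 2 (9.09%) had a region within 50 kb, Reg3g, an antimicrobial lectin gene (6.18 and 5.32), and Il1b, the interleukin-1 beta gene (6.04 and 7.59), at 44257 and 37448 bp. Of 22 AP-1 and immediate early genes there was 1 (4.55%), the nuclear receptor gene Nr4a3, with a region 7035 bp upstream (5.91 and 3.70). Of 14 genes of the unfolded protein response there were 3 (21.4%). These were Hsp90b1, an endoplasmic reticulum chaperone gene, with an intronic region 2942 bp from its start (6.08 and 13.0), Dnajb9, a co-chaperone gene (5.83 and 3.52), and Ern1, the gene of the sensor IRE1 (5.47 and 9.78). Within 10 kb of a start 1 of the 14 had a region. All 14 had a strong peak of all 3 lists within 50 kb. Of 15 matched genes of factors that the study brought up, in part from these libraries, 2 (13.3%) had a region, Foxp1 (6.23 and 7.75), where it lay 882 bp from a WT peak, and Tcf12 (6.19 and 3.31). Of 15 matched genes that islet cells do not use there was 1 (6.67%), Olig2, through the Olig1 promoter region.

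The list of neuronal adhesion and synapse genes had the most. Of its 15 genes 7 (46.7%) had a region within 50 kb of a start, 14 regions in all, and these included Nlgn1, Cntnap2, Dlg2, Lsamp, Cdh2 and Kcnip4. The strongest were in introns of Cntnap2, a contactin-associated protein gene (12.3 at 1 week, 12.1 at 5 weeks), Kcnip4, a potassium channel interacting protein gene (12.2 and 9.02), and Lsamp (12.1 and 5.04), and a further one of Cntnap2 had 9.35 and 6.66. These genes are among the longest of the genome, and many have several starts. Within 10 kb of a start 3 of the 15 had a region, against 522 of the 21275 protein-coding genes. Of the 15 genes, 12 had a strong peak of all 3 lists within 50 kb.

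Motifs were counted on both strands in the 300 bases around the midpoint of peaks outside promoters. In peaks shorter than 300 bp the window took in bases beyond the peak. The 10th percentile of length, promoters included, was 260 bp for the regions and 336 bp for the peaks in all 3 lists. Outside promoters the median distance to a start still differed, at 61515 and 36648 bp. The letters searched overlap in part, and a match is a match of letters only. Among motifs of beta cell enhancer factors, FOX (TGTTTAC) was in 11.5% of 2746 regions (10.4 to 12.8), in 11.4% of 13556 strong peaks of all 3 lists and in 6.0% of all 126301 peaks of the 1 week list. HNF1 (GTTAATNAT) was in 2.80%, 2.59% and 1.21%, and the E-box CAGATG of NeuroD1 and its relatives in 29.9%, 31.4% and 27.0%. The homeodomain motif TAATTA was in 13.0% (11.8 to 14.3), 11.0% (10.4 to 11.5) and 8.36%. For the first 3 of these the intervals of the regions and of the peaks in all 3 lists overlapped. They also overlapped for the Maf motif TGCTGAC, in 7.94% (6.99 to 9.01), 8.45% (7.99 to 8.93) and 7.23%. This group leaves out RFX and HNF4, whose matches were fewer in the regions, as given below.

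For the motifs that follow the intervals of the regions and of the peaks in all 3 lists did not overlap. Matches were fewer in the regions for AP-1 (TGANTCA, 9.25% against 12.6%), RFX (GTTNCCATG, 1.71% against 2.55%), ETS (CCGGAA, 3.02% against 5.34%) and SP (GGGCGG, 4.88% against 10.3%). They were more for the GATA motif AGATAA (18.9% against 15.4%), the TATA box motif (TATAAA, 20.8% against 12.4%) and CTCF (2.80% against 1.87%), the insulator protein. In all 1 week peaks outside promoters these 3 were in 16.6%, 16.8% and 0.845%. Promoters included, they were in 24.1%, 20.4% and 2.01% of the strong peaks of the 1 week list alone. In the regions, promoters included, they were in 18.6%, 20.6% and 2.80%. Matches were also fewer for the E-box CACGTG of Myc-like factors (2.84% against 4.60%), HNF4 (CAAAGTCCA, 0.328% against 0.937%) and CRE (TGACGTCA, 0.146% against 0.479%), and more for CCAAT (34.6% against 31.9%) and a run of 9 A (6.12% against 3.78%). In all 1 week peaks outside promoters CCAAT was in 40.5% and the A run in 4.04%. Over whole peaks, promoters included, CCAAT was in 48.1% of the regions and in 58.5% of the longer peaks in all 3 lists. The A run was in 10.2% and 9.61%, CTCF in 3.12% and 2.91%, GATA in 30.0% and 26.4% and TATA in 30.6% and 22.8%. Whether these shares differ at equal GC content was not tested.

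**Figure D5:**
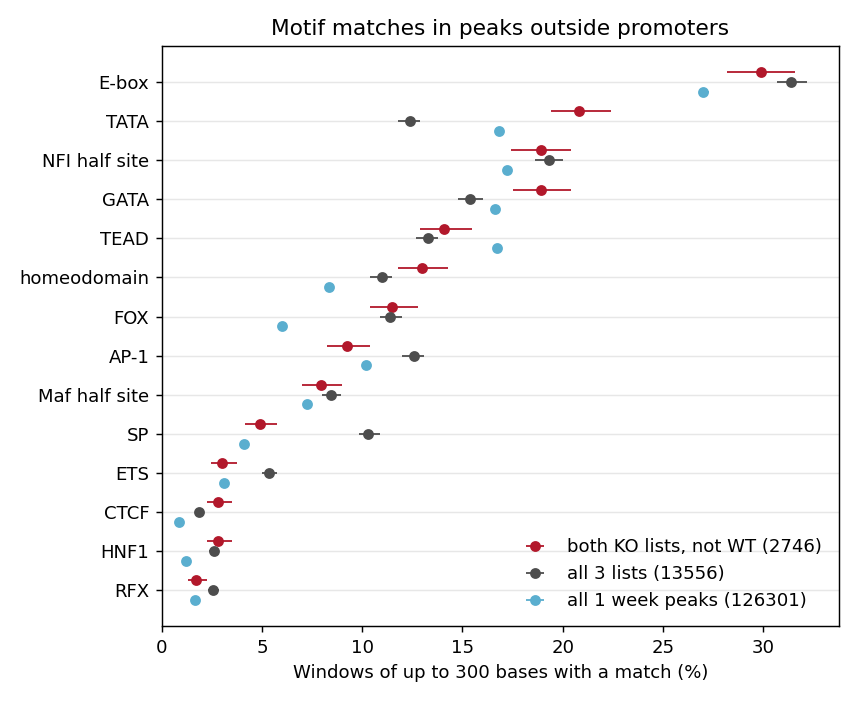
Share of windows of 300 bases around the midpoint of peaks outside promoters with a match (x axis, percent) for each motif (y axis), with Wilson 95% intervals, in the 2746 shared regions, 13556 strong peaks of all 3 lists and all 126301 1 week peaks. FOX matches are as frequent in the regions (11.5%) as in the peaks of all 3 lists (11.4%), while SP matches are fewer (4.88% against 10.3%) and TATA matches more (20.8% against 12.4%).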

How the data were processed

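ATAC-seq of cells from isolated islets yielded 1 peak list each for WT, Taf4 KO 1 week and Taf4 KO 5 weeks, grouped by the genotype and time labels. Per the labels and methods, the authors used bcl2fastq 2.17.1.14, mapped reads to mm9 with Bowtie 1.0.0, kept uniquely aligned reads and called broad peaks per library with MACS2 2.1.1, and no control library, duplicate removal or insertion shift is given in the sources used here. Unique alignment leaves out sites with exact copies. The deposited lists hold fold over local background (a linear ratio) and -log10 p and -log10 q values, averaged over each peak. The whole-number score was not used. Read totals were not used here, so depth was recovered from fold and p as the local background, with its first percentile as floor.

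Peaks of chromosomes 1 to 19 were kept. Overlap was 1 bp or more, with the 5 week peak of highest -log10 q kept. Genes and sequence came from GENCODE vM1 and NCBIM37, the build of the files, and distances run from a peak's midpoint to the nearest protein-coding start. Wilson 95% intervals cover the counting of peaks only. No test between conditions was run. Computation used Python 3.11.15, pandas 2.3.3, numpy 2.4.6, scipy 1.17.1 and numba 0.67.0, and functions were checked on simulated data.

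The regions and lists were chosen with earlier results of these data known. Named were the 10 strongest regions at 1 week, 5 further ones at 5 weeks, the 10 strongest at promoters, up to 4 per gene list, the 5 genes nearest to most regions (ties by the strongest region), the 3 farthest from and nearest to a WT peak and around the limit of 5, and the 5 densest 1 Mb bins. Alternatives changed the strength limit, the overlap, the WT distance, list sizes, the depth scaling, the promoter, the window and the list distance. A gene and a sequence that this rule names are not reported here.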

Additional observations from a re-analysis of the deposited data

Results flagged for a closer look

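Chromosome X was outside the choice of regions, and its peaks were looked at separately as data that the comparisons above do not use. Of 470 chromosome X peaks of the Taf4 KO 1 week list with a -log10 q of 5 or more, 378 overlapped a WT peak and 46 (9.79%) met the same rule, overlapping a 5 week peak and no WT peak. The WT, 1 week and 5 week lists held 1272, 12225 and 1451 chromosome X peaks. The cause of the larger number at 1 week was not tested. No group held enough libraries to look for a library that stands apart.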

How the results depend on the processing

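No paired analysis was possible because each group had 1 library. The number of regions was 8822 at a -log10 q limit of 3, 345 at 10 and 1842 where the 5 week peak also had to reach 5. It stayed within 1.5 times of 2821 under the other 5 alternatives (2144 to 2821), among them 2502 with both Taf4 KO lists cut to the WT list's size and 2268 after scaling to the WT background. The promoter share was 2.03% at a limit of 10, 4.71% with a window of 2000 bp on both sides and 4.15% with starts of any biotype. The median distance to a WT peak was 24618 bp at a limit of 3, 19468 bp at 10, 13648 bp with 5 week peaks of 5 or more, 15107 bp with lists cut to size and 14518 bp after scaling. The share with a 5 week -log10 q of 5 or more was 38.4% at a limit of 3, 90.4% at 10, 68.6% with 50% reciprocal overlap, 73.6% with lists cut to size, 81.2% after scaling and, by construction, 100% where it was required. The median GC content was 46.0% at a limit of 3 and 43.7% at 10, and the median length 451 bp at 10, 400 bp with reciprocal overlap and 401 bp with strong 5 week peaks. Of 27 motifs, 16 had a higher share in the regions than in strong peaks of all 3 lists over the central window, promoters included, and 6 over whole peaks, which are longer in the latter. Summed over the lists, 21 genes had a region within 50 kb and 8 within 10 kb. The causes of these shifts were not tested. Depth limits the absence from WT, since 18.6% of the regions by their 1 week and 8.83% by their 5 week pileup exceeded the WT limit by 2 counting SDs (92.7% and 41.9% by 1 SD). The 92.7% was largely fixed by the choice by 1 week strength.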
